A study of Mus musculus with 6 samples.

Results

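Hyaluronan genes were examined in CD34hi and CD34lo mammary fibroblasts by bulk RNA-seq, through 9 genes listed by symbol: the synthases *Has1*, *Has2* and *Has3*, the degrading proteins *Hyal1*, *Hyal2*, *Cemip* and *Cemip2*, and the hyaluronan binders *Cd44* and *Tnfaip6*. All 9 were found once each among the 27179 genes of the count table, and all 9 passed the filter on low counts, which kept 15219 genes. The cells came from pubertal female mice at 6 weeks of age, of strain FVB/N by the labels and FVB/NJ by the methods of the study, with no treatment or transgene named in the labels, and were snap frozen after they had been sorted as Lin-CD24-Pdgfrα+ fibroblasts with high or low CD34 on the surface. Lin- means that cells carrying CD31, CD45 or TER-119 were removed. Each of 3 pools of 2 mice gave 1 CD34hi and 1 CD34lo library, which makes 3 libraries for each population, and a library mixes the RNA of 2 animals. In such sorted samples, fewer cells of a subtype and less RNA per cell cannot be told apart.

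Hyaluronan is a long unbranched sugar chain of the extracellular matrix, built from glucuronic acid and N-acetylglucosamine. HAS enzymes in the plasma membrane join the activated sugars, which the cytosol supplies as UDP-glucuronic acid and UDP-N-acetylglucosamine, and push the chain out of the cell. CEMIP, CEMIP2 and HYAL2 are linked to cutting of the chain at or outside the cell surface and HYAL1 in lysosomes, while CD44 is its main surface receptor and TSG-6, the product of *Tnfaip6*, moves protein heavy chains onto it. Fibroblasts are a main source of hyaluronan in connective tissue, including the mammary stroma.

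Total counts ranged from 28764779 to 52402410 per library, and 3 counts corresponded to 0.0572 to 0.104 CPM (counts relative to library size, scaled with the trimmed mean of M-values, TMM), for counting error only. *Cd34* had a log2 fold change of 2.02 (adjusted p = 9.66e-05 by the edgeR quasi-likelihood test), and its product is the antigen the cells were sorted on. The 5 fibroblast markers summed to 28380 to 31840 CPM in CD34hi and 31490 to 36420 CPM in CD34lo libraries but differed in direction: *Igfbp5* was higher in CD34hi (log2 fold change 3.45), *Lum*, *Pdgfra* and *Col1a2* were higher in CD34lo (-1.28, -0.74 and -0.69), and *Dcn* did not pass (-0.34). Among other cell types, 10 leukocyte markers summed to 17.6 to 20.9 CPM in CD34hi and 8.16 to 13.3 CPM in CD34lo libraries, with *Ptprc* at 1 to 13 counts. Of the sum in CD34hi libraries *Cd3e* made up most (mean of 14.9 CPM, against 3.77 CPM in CD34lo), while *Lyz2* and *Cd79a* were higher in CD34lo fibroblasts (log2 fold changes of -2.05 and -1.05). The 5 mesothelial markers summed to 37.9 to 59.2 CPM in CD34hi and 8.15 to 10.8 CPM in CD34lo libraries. Most of this was *Krt19*, which is also an epithelial marker and was higher in CD34hi fibroblasts (log2 fold change 2.66), while *Msln*, *Upk3b* and *Lrrn4* had at most 10 counts in any library and *Wt1* did not pass. All 6 pericyte and smooth muscle markers were higher in CD34lo (90 to 122 CPM summed) than in CD34hi libraries (11.1 to 14.6 CPM), and 3 of 5 keratinocyte markers were higher in CD34hi libraries (135 to 165 CPM summed against 6.45 to 11.3 CPM), mostly *Sbsn*, with *Krt1* at 0 counts. Adipocyte markers summed to 1.90 to 2.76 CPM in CD34hi against 4.24 to 6.90 CPM. The part of these cell types in the values below was not tested.

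Upstream sequence from RefSeq was at hand for 6 of the 9 genes. It is shown for *Has1*, *Tnfaip6* and *Cd44*, which were higher in CD34hi fibroblasts of every pool, as the 250 bases that end 1 base before the annotated start of the first exon, in GRCm38.p6 and 5′ to 3′ on the strand of the gene. Capitals mark a cyclic AMP response element (TGACGTCA) or an AP-1 site (TGANTCA), searched on both strands; no letters can match both. The windows are chr17:17855189-17855438 for *Has1* (minus strand), chr2:52037863-52038112 for *Tnfaip6* (plus strand) and chr2:102901666-102901915 for *Cd44* (minus strand).
Has1: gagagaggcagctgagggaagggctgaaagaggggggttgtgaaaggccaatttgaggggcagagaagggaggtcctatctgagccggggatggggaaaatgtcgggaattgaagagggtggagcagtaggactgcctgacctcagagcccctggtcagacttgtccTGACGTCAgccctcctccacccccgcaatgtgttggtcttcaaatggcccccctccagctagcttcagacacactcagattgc
Tnfaip6: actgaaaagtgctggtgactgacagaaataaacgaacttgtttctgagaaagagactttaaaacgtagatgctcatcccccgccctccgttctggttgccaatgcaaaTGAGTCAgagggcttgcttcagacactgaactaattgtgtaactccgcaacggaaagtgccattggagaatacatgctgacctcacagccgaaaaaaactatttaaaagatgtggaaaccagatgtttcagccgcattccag
Cd44: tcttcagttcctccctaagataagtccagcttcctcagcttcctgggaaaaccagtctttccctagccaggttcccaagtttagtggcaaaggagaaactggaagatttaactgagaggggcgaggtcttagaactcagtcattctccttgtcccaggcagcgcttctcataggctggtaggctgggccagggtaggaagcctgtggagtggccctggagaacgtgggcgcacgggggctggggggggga
The window of *Has1* held the response element between 83 and 76 bases before the start, and 1.55% of the 32851 promoter windows of this length held one. That of *Tnfaip6* held an AP-1 site between 142 and 136 bases before the start, against 6.75% of all windows. The *Cd44* window held neither, nor did the windows of *Hyal1*, *Hyal2* and *Cemip*, which are not shown. CCAAT, GC and TATA boxes were also searched for and are not marked. These are matches of letters and were not tested as binding sites.

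Of the 9 genes, 2 (*Has1* and *Has2*) were higher in CD34hi fibroblasts, 2 (*Cemip* and *Cemip2*) were higher in CD34lo fibroblasts, and 5 did not pass an adjusted p-value of 0.05 in the quasi-likelihood test of edgeR, adjusted after Benjamini and Hochberg across all genes tested. Over all tested genes, 16.9% passed towards CD34hi and 18.7% towards CD34lo fibroblasts, so that 2 of 9 in each direction is near the background. The CPM of the populations did not overlap for 4 of the 9 genes, against 50.1% of all genes tested. In the paired fit, which takes the mouse pool as a block, *Cd44* and *Tnfaip6* also passed, which made 4 genes higher in CD34hi (19.6% of all genes) and again 2 higher in CD34lo fibroblasts (20.9% of all genes). The median log2 fold change of the 9 genes was 0.13, and that of all tested genes was -0.0064. Below, log2 fold changes are CD34hi vs CD34lo, with the standard error (SE).

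**Figure D1:**
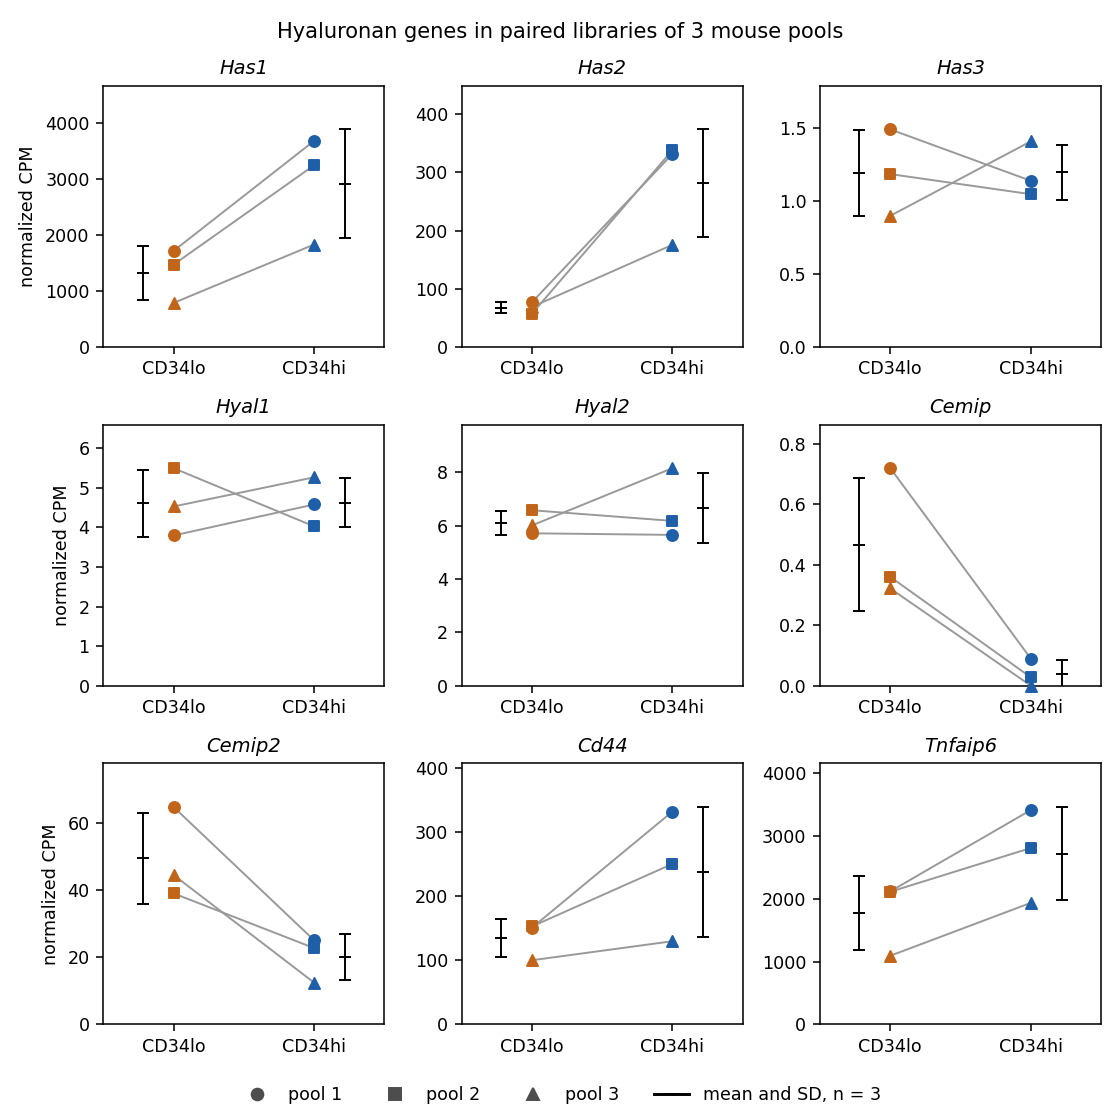
Normalized CPM (vertical axes, linear from 0) of the 9 hyaluronan genes in CD34lo (orange) and CD34hi (blue) libraries, with a line joining the libraries of a mouse pool and bars for mean and SD (n = 3). *Has1*, *Has2*, *Cd44* and *Tnfaip6* rise from CD34lo to CD34hi in each of the 3 pools, *Cemip* and *Cemip2* fall in each, and *Has3*, *Hyal1* and *Hyal2* cross.

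*Has1* (gene 15116, chromosome 17, 17843326 to 17855188) had 3684, 3248 and 1831 CPM in the CD34hi and 1716, 1471 and 785.6 CPM in the CD34lo libraries of pools 1, 2 and 3. The populations did not overlap, although pool 3 was the lowest in both. The mean was 2921 ± 969 CPM (SD, n = 3) in CD34hi and 1324 ± 482 CPM (SD, n = 3) in CD34lo fibroblasts, a log2 fold change of 1.14 (SE 0.33, adjusted p = 0.0273 in the edgeR quasi-likelihood test). Within pools the log2 ratios were close to each other, at 1.10, 1.14 and 1.22. With the replicate block the log2 fold change was 1.155 (SE 0.14, adjusted p = 0.000123 from edgeR). Without the block, the call was lost when some pools or libraries were left out, while the log2 fold change stayed between 0.88 and 1.40. Those fits took no account of the pairing. In edgeR the adjusted p was 0.0617 without pool 1, 0.107 without pool 2, 0.0733 without the CD34hi library of pool 1, 0.0511 without the CD34lo and 0.0751 without the CD34hi library of pool 2, and 0.0691 without the CD34lo library of pool 3.

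*Has2* (gene 15117, chromosome 15, 56665627 to 56694546), the synthase that embryos cannot do without, had 331.7, 338.2 and 175.5 CPM in CD34hi and 76.7, 56.9 and 68.6 CPM in CD34lo libraries. Every CD34hi library lay above every CD34lo library. The log2 fold change was 2.06 (SE 0.25, adjusted p = 0.000325 in the edgeR quasi-likelihood test), that is 4.18-fold, and it stayed between 1.81 and 2.33 over 21 alternatives, each with an adjusted p-value under 0.05. Within pools the log2 ratio was 2.11, 2.57 and 1.35. The antisense gene *Has2os* overlaps *Has2* and had 246 counts over all libraries against 42937 for *Has2*.

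*Has3* (gene 15118, chromosome 8, 106870242 to 106882902) was close to the lower end of what was tested, with 51, 38 and 64 counts in CD34hi and 81, 33 and 28 counts in CD34lo libraries. Its CPM was 1.14, 1.05 and 1.41 in CD34hi and 1.49, 1.19 and 0.900 in CD34lo libraries, so that the populations overlapped. The log2 fold change was -0.0014 (95% interval -0.71 to 0.70, adjusted p = 0.998 from edgeR), an interval that allows a difference of either sign.

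Levels of different genes were compared per length, as RPKM (normalized CPM per kilobase). *Has1* had 1396 ± 463 RPKM in CD34hi and 633 ± 231 RPKM in CD34lo fibroblasts (SD, n = 3), which placed it at rank 32 and rank 78 of the 15219 tested genes. *Has2* had 66.4 ± 21.7 and 15.9 ± 2.35 RPKM, and *Has3* had 0.203 ± 0.0319 and 0.202 ± 0.0502 RPKM. *Has1* thus took nearly all synthase counts per kilobase in every library, between 95.1% and 98.1%. The share of *Has2* was 4.25%, 4.88% and 4.51% in CD34hi and 2.16%, 1.87% and 4.13% in CD34lo libraries. The means were 4.55% ± 0.317 and 2.72% ± 1.23 (SD, n = 3), the libraries of the populations did not overlap, and the exact two-sided permutation test gave p = 0.1, the smallest that 3 libraries against 3 allow. Per length, *Has1* exceeded *Has2* by 22.5, 19.5 and 21.2 times in CD34hi and by 45.4, 52.4 and 23.2 times in CD34lo libraries, where pool 3 was close to the CD34hi libraries and the other two were not.

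Among the degrading proteins, the lysosomal hyaluronidase gene *Hyal1* (gene 15586, chromosome 9, 107576952 to 107580137) had 4.58, 4.03 and 5.27 CPM in CD34hi and 3.80, 5.50 and 4.53 CPM in CD34lo libraries. *Hyal2* (gene 15587, chromosome 9, 107569163 to 107572778), whose product is anchored to the cell surface, had 5.66, 6.18 and 8.16 CPM in CD34hi and 5.72, 6.58 and 6.01 CPM in CD34lo libraries. Both overlapped between populations, and pools differed in direction. The log2 fold change was 0.012 for *Hyal1* (95% interval -0.46 to 0.49, adjusted p = 0.971) and 0.13 for *Hyal2* (95% interval -0.30 to 0.56, adjusted p = 0.631, both in the edgeR quasi-likelihood test). Both intervals allow a difference of either sign.

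*Cemip2* (gene 83921, chromosome 19, 21778342 to 21858327), which encodes a membrane protein linked to hyaluronan breakdown at the cell surface, had 25.1, 22.8 and 12.5 CPM in CD34hi and 64.9, 39.1 and 44.6 CPM in CD34lo libraries. The populations did not overlap. The log2 fold change was -1.30 (SE 0.28, adjusted p = 0.00643 in the edgeR quasi-likelihood test), which is 2.46-fold higher in CD34lo fibroblasts. Over 21 alternatives the value lay between -1.54 and -1.03, with an adjusted p-value under 0.05 in each. Per length it was the most abundant of the 4 degrading genes among the 9 in CD34lo fibroblasts, with 7.43 ± 2.04 RPKM against 3.30 ± 0.237 for *Hyal2* and 2.12 ± 0.392 for *Hyal1* (SD, n = 3), whereas in CD34hi fibroblasts *Hyal2* had 3.60 ± 0.713 and *Cemip2* 3.02 ± 1.01 RPKM, which overlap.

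*Cemip* (gene 80982, chromosome 7, 83932857 to 84086505), the gene of a secreted hyaluronan-binding protein needed for breakdown by skin fibroblasts, was barely detected. It had 4, 1 and 0 counts in CD34hi and 39, 10 and 10 counts in CD34lo libraries, or 0.0894, 0.0276 and 0 CPM against 0.719, 0.360 and 0.321 CPM. The fitted log2 fold change of -3.51 (SE 0.81, adjusted p = 0.00972 in the edgeR quasi-likelihood test) rests on 5 counts in one population and depends on the prior count. Without pool 2 the adjusted p from edgeR was 0.0511.

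*Cd44* (gene 12505, chromosome 2, 102811141 to 102901665) had 332.2, 250.5 and 129.9 CPM in CD34hi and 150.9, 152.9 and 100.2 CPM in CD34lo libraries. The CD34hi library was the higher one in each pool, but that of pool 3 lay below the CD34lo libraries of pools 1 and 2. The log2 fold change was 0.82 (SE 0.31, 95% interval 0.10 to 1.53, adjusted p = 0.0732 in the edgeR quasi-likelihood test), and 0.74 with the replicate block (SE 0.15, adjusted p = 0.00391 from edgeR). It also passed without pool 3 (adjusted p = 0.0107), without the CD34hi library of pool 3 (0.00537), with no filter on low counts (0.0446) and in DESeq2 (0.0203). It did not pass with any other pool or library left out, and was 0.53 without the CD34hi library of pool 1 (adjusted p = 0.215) and 0.61 without pool 1 (adjusted p = 0.229 in edgeR).

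*Tnfaip6* (gene 21930, chromosome 2, 52038113 to 52056681) had 3417, 2812 and 1938 CPM in CD34hi and 2121, 2115 and 1095 CPM in CD34lo libraries. Here too the CD34hi library was higher in each pool and the CD34hi library of pool 3 fell below the CD34lo libraries of pools 1 and 2. The log2 fold change was 0.62 (SE 0.29, 95% interval -0.053 to 1.28, adjusted p = 0.138 in the edgeR quasi-likelihood test), 0.64 with the replicate block (adjusted p = 0.00678) and 0.56 without pool 3 (adjusted p = 0.0491). Without the CD34lo library of pool 3 it was 0.37 (adjusted p = 0.313 in edgeR), and the adjusted p was over 0.05 with each other pool or library left out. Per length it led the 9 genes in both populations, with 1700 ± 465 RPKM in CD34hi and 1110 ± 369 RPKM in CD34lo fibroblasts (SD, n = 3), at rank 24 and rank 38 of the genes tested. It exceeded *Has1*, the next gene, in each of the 6 libraries, although the ranges of these genes over libraries overlapped in both populations. *Cd44* came well below, with 42.0 ± 18.0 and 23.8 ± 5.28 RPKM (SD, n = 3), and its range overlapped with that of *Has2* in both populations. Within libraries, *Has2* exceeded *Cd44* in each CD34hi library, and *Cd44* exceeded *Has2* in each CD34lo library. Below these came *Cemip2* and *Hyal2*, then *Hyal1*, then *Has3*, and last *Cemip*. By mean, *Cemip2* was above *Hyal2* in CD34lo and below it in CD34hi fibroblasts.

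**Figure D2:**
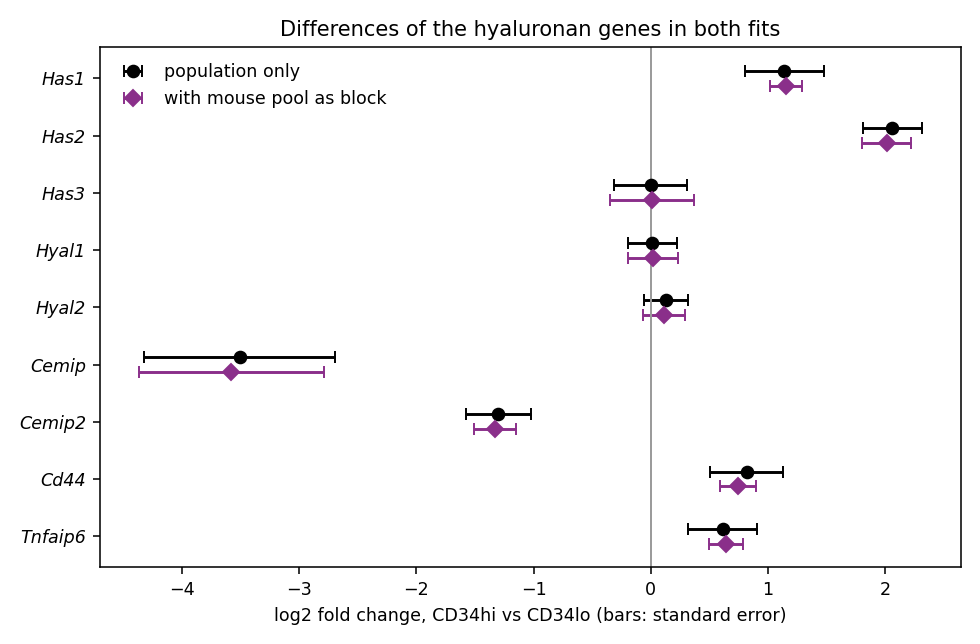
Log2 fold change CD34hi vs CD34lo (horizontal axis, bars are standard errors) of the 9 hyaluronan genes, without the mouse pool (black circles) and with it as a block (purple diamonds). The values of both fits lie close together, and the bars of *Has1*, *Cd44* and *Tnfaip6* are shorter with the block, where the standard errors are 0.14, 0.15 and 0.15 against 0.33, 0.31 and 0.29.

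Pool 3 was lowest in both populations for *Has1*, *Tnfaip6* and *Cd44*. Of 10 immediate early and heat shock genes, which stress and tissue dissociation induce, 3 were also lowest in pool 3 in both populations (*Junb*, *Atf3* and *Ier2*, named after their values were seen). Among CD34hi libraries, *Fos*, *Jun*, *Egr1*, *Dusp1* and *Hspa1b* were instead highest in pool 3. The summed CPM of the 10 genes ranged from 20930 to 25540 in CD34hi and from 36020 to 48990 in CD34lo libraries. Of these 10 genes, 7 were lower in CD34hi fibroblasts, beside 18.7% of all genes tested, and 3 did not pass. *Fos*, for example, had 3277, 3704 and 4811 CPM in CD34hi and 6966, 10300 and 8201 CPM in CD34lo libraries. The part of these genes in the values of the hyaluronan genes was not tested.

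Of 10 listed genes of precursor supply, which hold enzymes that make the activated sugars and also the deaminases *Gnpda1* and *Gnpda2*, which turn glucosamine 6-phosphate back towards glycolysis, 8 were higher in CD34hi fibroblasts, 0 were higher in CD34lo fibroblasts (0 also at an unadjusted p under 0.05) and 2 did not pass, by edgeR's quasi-likelihood test. Over all tested genes, 16.9% passed towards CD34hi and 18.7% towards CD34lo fibroblasts. DESeq2 and limma-voom also called 0 of the 10 genes towards CD34lo. The median log2 fold change of the 10 genes was 1.25, against -0.0064 for all genes tested. The number was 5 without pool 1, where *Pgm3*, *Nagk* and *Gnpda2* did not pass (adjusted p of 0.0608, 0.0746 and 0.114 from edgeR). Without pool 2, *Pgm3* and *Gnpda2* did not pass either, with 0.122 and 0.102, nor did they without its CD34hi library alone, with 0.0526 and 0.0835, and *Gnpda2* had 0.0571 without the CD34hi library of pool 1.

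Genes on both arms of the supply were higher in CD34hi fibroblasts. On the glucuronic acid arm, *Ugp2*, which makes UDP-glucose, had 625, 584 and 442 CPM in CD34hi and 97.1, 117.5 and 101.3 CPM in CD34lo libraries. *Ugdh*, which oxidizes UDP-glucose to UDP-glucuronic acid, had 2907, 2768 and 2022 CPM against 657, 697 and 415 CPM. The populations lay far apart in both genes, with log2 fold changes of 2.39 (SE 0.17, adjusted p = 1.72e-05) for *Ugp2* and 2.12 (SE 0.24, adjusted p = 0.000198) for *Ugdh* in the edgeR quasi-likelihood test.

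On the N-acetylglucosamine arm, the last step is carried out by UAP1. *Uap1* had 2206, 2112 and 1346 CPM in CD34hi and 402, 482 and 231 CPM in CD34lo libraries, a log2 fold change of 2.34 (SE 0.30, adjusted p = 0.000416 from edgeR). *Gnpnat1*, which acetylates glucosamine 6-phosphate, had a log2 fold change of 2.29 (SE 0.17, adjusted p = 2.44e-05 from edgeR), and an opposite-strand gene, *Styx*, overlaps it with 3287 counts against 11530. The rate-limiting first step has 2 enzymes, and they differed in behaviour. *Gfpt2*, named after its values were seen, had 4542, 4270 and 2877 CPM in CD34hi and 1044, 1353 and 629 CPM in CD34lo libraries (log2 fold change 1.95, SE 0.30, adjusted p = 0.0011 from edgeR). *Gfpt1*, also named after its values were seen, had 132, 137 and 107 CPM against 144, 134 and 142 CPM (log2 fold change -0.16, SE 0.13, adjusted p = 0.356 from edgeR). Per length, *Gfpt2* exceeded *Gfpt1* in both populations, at 1305 against 20.1 RPKM in CD34hi and 338 against 22.4 RPKM in CD34lo fibroblasts. *Pgm3*, *Nagk* and *Gnpda2* had smaller log2 fold changes, of 0.48, 0.52 and 0.55, and *Pgm3* overlaps the opposite-strand gene *Dop1a*, which had 12735 counts against 7469.

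**Figure D3:**
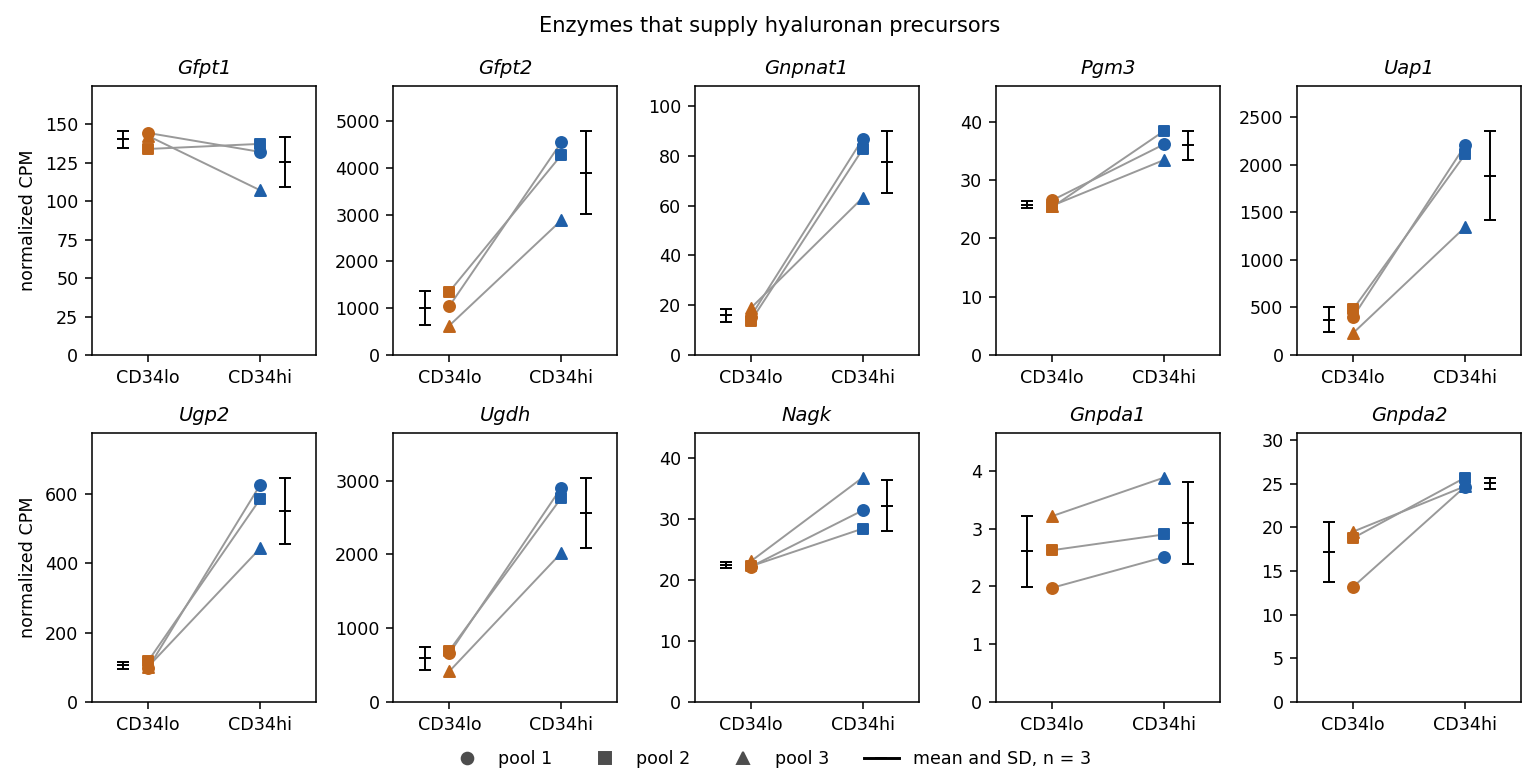
Normalized CPM (vertical axes, linear from 0) of 10 enzymes of precursor supply in CD34lo (orange) and CD34hi (blue) libraries, with a line joining the libraries of a mouse pool and bars for mean and SD (n = 3). *Gfpt2*, *Gnpnat1*, *Uap1*, *Ugp2* and *Ugdh* are several times higher in CD34hi libraries of all 3 pools, while *Gfpt1* overlaps.

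Of 7 other breakdown enzymes listed, 3 were tested and 4 had no counts in any library (*Hyal4*, *Hyal5*, *Hyal6* and *Spam1*). The 2 that did not pass, named after their values were seen, were *Hexa* (log2 fold change -0.10) and *Hyal3* (95% interval -0.90 to 1.285). *Hyal3* had 21 to 43 counts per library, and *Naa80* overlaps it on the same strand with 1862 counts against 201. *Gusb*, the lysosomal β-glucuronidase, was higher in CD34hi fibroblasts, as were 16.9% of all genes tested (log2 fold change 0.48, SE 0.11, adjusted p = 0.00982 from edgeR). Its adjusted p was 0.0755 without pool 1 and 0.0705 without pool 2.

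Among 15 other receptors and binding proteins, 8 were tested, of which 2 were higher in CD34hi and 2 in CD34lo fibroblasts. Over all tested genes the shares were 16.9% and 18.7%, so that 2 of 8 in each direction is near the background. *Ptx3*, whose product pentraxin 3 binds TSG-6 and helps to hold hyaluronan matrices together, had 5266, 4907 and 2478 CPM in CD34hi and 557, 695.5 and 151.1 CPM in CD34lo libraries. Its log2 fold change was 3.17 (SE 0.54, adjusted p = 0.00201 in the edgeR quasi-likelihood test), or 9.01-fold, and pool 3 was again lowest in both populations. The scavenger receptor gene *Stab1* had a log2 fold change of 1.96 (SE 0.34, adjusted p = 0.00229 from edgeR) and is uncertain, since the opposite-strand gene *Nt5dc2* overlaps it with 3289 counts against 967. Higher in CD34lo fibroblasts were the link protein gene *Hapln3* (log2 fold change -2.99, SE 0.48, adjusted p = 0.00146) and the receptor gene *Layn* (log2 fold change -0.89, SE 0.19, adjusted p = 0.00671, and 0.0795 without pool 2, all from edgeR). *Hapln3* was low, with 15, 14 and 28 counts in CD34hi and 325, 56 and 82 counts in CD34lo libraries. Its log2 fold change was -3.49 to -2.17 on leaving out a pool or library. *Vcan*, which encodes the large hyaluronan-binding proteoglycan versican and is named here after its values were seen, had 526 ± 65.6 CPM in CD34hi and 519 ± 195 CPM in CD34lo fibroblasts (SD, n = 3), with a log2 fold change of 0.020 (SE 0.27, adjusted p = 0.963 from edgeR).

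Heavy chains that TSG-6 moves onto hyaluronan come from the inter-α-trypsin inhibitor family, of which 6 genes were listed and 4 tested. *Itih5*, by far the most abundant of them, had 1348, 1228 and 1301 CPM in CD34hi and 666, 865 and 827 CPM in CD34lo libraries. It was higher in CD34hi fibroblasts, with a log2 fold change of 0.72 (SE 0.15, adjusted p = 0.00524 in the edgeR quasi-likelihood test, and 0.0725 without pool 1). *Itih2* and *Itih3* were low and went the other way, with log2 fold changes of -2.50 (SE 0.25, adjusted p = 0.000107) and -2.34 (SE 0.51, adjusted p = 0.00676, and 0.0690 without pool 2, all from edgeR). *Itih2* had 1.03 ± 0.0833 CPM in CD34hi and 5.86 ± 1.45 CPM in CD34lo fibroblasts (SD, n = 3). *Ambp*, the gene of the light chain, had at most 4 counts in a library.

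**Figure D4:**
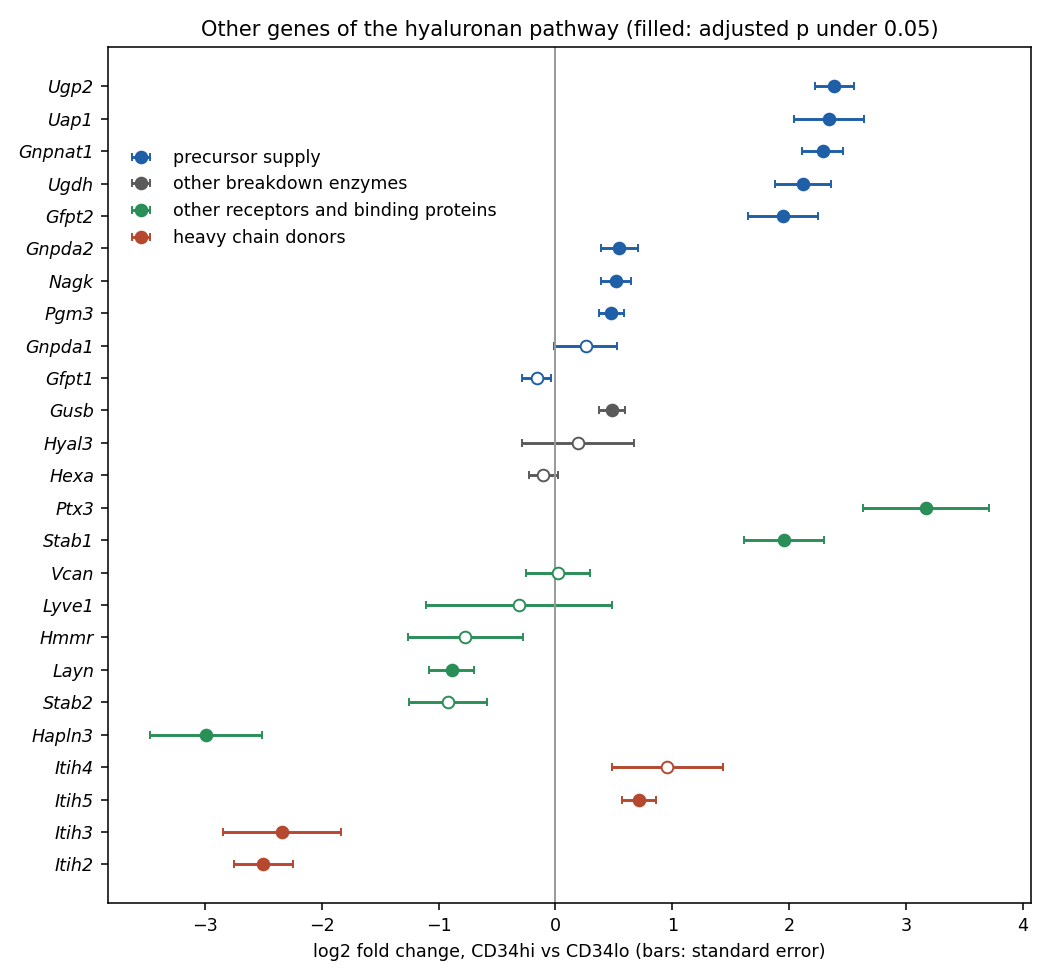
Log2 fold change CD34hi vs CD34lo (horizontal axis, bars are standard errors) of the 25 tested genes of the wider pathway, coloured by list and filled where the adjusted p-value was under 0.05. The genes of precursor supply lie between -0.16 and 2.39, *Ptx3* has the highest value at 3.17 and *Hapln3* the lowest at -2.99.

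Over the whole wider list, 25 of 38 genes were tested, 12 were higher in CD34hi and 4 in CD34lo fibroblasts, beside 16.9% and 18.7% of all genes tested, and the median log2 fold change was 0.48. The median was 0.048 with no filter on low counts, 0.31 without the CD34hi library of pool 2 and 0.30 without that of pool 3. Without pool 1 the first number was 7, and without pool 2 the second was 2. Of the 12, 8 belong to precursor supply.

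Across the 6 libraries, the genes most like *Cemip*, the gene with the largest fold change among the 9, were *Zfand5*, *Prpf38b* and *Bet1l*, with Pearson's r between 0.995 and 0.996 on log2 CPM. For *Has1*, a choice made after the values were seen, they were *Rxrb*, *Urgcp* and *Bach1*, with r between 0.995 and 0.996. An r above 0.95 was reached by 326 of 8960 genes with *Cemip* and by 158 of 8959 with *Has1*. These values rest on 6 libraries in 3 pools, and *Cemip* had 64 counts over all of them. They are given as a description of these libraries.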

How the data were processed

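Poly-A RNA of FACS-sorted CD34hi and CD34lo fibroblasts was sequenced by the authors from TruSeq RNA v2 libraries, a kit that does not mark strand, aligned to GRCm38/mm10 and counted on genes with Rsubread. The deposited values are raw counts per gene, with gene coordinates and lengths. The annotation used for counting and the treatment of multi-mapping reads are not given in the sources used here. Symbols were assigned by gene identifier from RefSeq for 25275 of 27179 genes.

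The analysis used edgeR 4.0.16 under R 4.3.3: filterByExpr by population, TMM normalization and the quasi-likelihood test of CD34hi against CD34lo across all genes, with Benjamini-Hochberg adjustment and a threshold of 0.05. Each SE was obtained as |log2 fold change|/√F. The edgeR common biological coefficient of variation came to 19.7% (14.9% in the blocked fit). Libraries of 1 number come from the same mouse pool, which is where the pairing comes from. Deviations of paired libraries from their population means correlated across genes with r = 0.279, 0.0844 and 0.243. Depth was 28764779 to 52402410 counts per library, and replicate libraries differed by more than sampling noise.

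Alternatives were limma-voom (limma 3.58.1), the method of the study itself, DESeq2 1.42.0, RLE and upper-quartile scaling, other filters, genes with a symbol only, the replicate block, thinned counts, each pool or library left out, and stricter thresholds. The fits were tested on simulated data. The genes and lists were chosen with earlier results of these data known. One gene of the wider lists and some marker genes are not reported here, and the counts and medians of the wider lists leave that gene out. Named were the 9 genes and, of each wider list, up to 4 genes past the threshold with the largest change. The likeness measure was Pearson's r of log2 CPM (prior count 2) among genes with a mean log2 CPM of at least 3.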

Additional observations from a re-analysis of the deposited data

How the results depend on the processing

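*Cemip* and *Has3* rested on few counts, and all values on 3 libraries per population. In all 21 alternatives, *Has2* and *Cemip2* stayed past the threshold on the same side. The replicate block changed no other call of the 9 genes than those of *Cd44* and *Tnfaip6*. Of 522 comparisons over the 25 wider genes, 490 kept direction and side of the threshold, 21 lost and 2 gained significance, and 9 changed sign. The causes were not tested.

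At an adjusted p-value under 0.01, 3444 genes differed (1559 higher in CD34hi, 1885 in CD34lo), with 1 of the 9 genes higher in CD34hi, since *Has1* (log2 fold change 1.14) did not pass. Where calls also needed a log2 change of 1 or more in size, 2986 differed (1164 and 1822), with 7 wider genes higher in CD34hi, of which 5 were of precursor supply. On leaving out a pool or library, 3468 to 5236 genes differed (1608 to 2456 and 1860 to 2780), with 1 to 4 of the 9 higher in CD34hi and 1 to 2 in CD34lo, 7 to 13 and 2 to 5 wider genes, and 5 to 8 of precursor supply.

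With the replicate block, edgeR and limma-voom each called 4 of the 9 higher in CD34hi. *Cd44* passed at 0.74 and 0.73, and *Tnfaip6* at 0.64 in each. *Cd44* also passed in DESeq2 (0.82) and with no filter (0.85). With at least 10 counts in every library, and with thinned counts, 1 of the 9 was higher in CD34lo, and *Cemip* gave no value.

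Signs changed in genes near 0. *Has3* had 0.00093 with RLE scaling, 0.025 with no filter, 0.014 with the replicate block and 0.047 with thinned counts. *Hyal1* had -0.040 with upper-quartile scaling, -0.0024 with at least 10 counts in every library and -0.055 with thinned counts, and *Vcan* -0.031 with upper-quartile scaling. Leaving out a pool or library gave 0.88 to 1.40 for *Has1*, -0.30 to 0.27 for *Has3*, -0.097 to 0.25 for *Hyal1*, -0.049 to 0.27 for *Hyal2*, -4.92 to -2.91 for *Cemip*, 0.53 to 1.12 for *Cd44*, 0.37 to 0.82 for *Tnfaip6*, -0.16 to 0.81 for *Hyal3*, -1.05 to 0.77 for *Lyve1* and -0.28 to 0.31 for *Vcan*.

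The median of the wider list, 0.48, was 0.49 in limma-voom, 0.43 with upper-quartile scaling, 0.048 with no filter, 0.47 with at least 10 counts in every library, 0.44 with thinned counts and 0.30 to 0.48 on leaving out a pool or library. Without division by length, the synthase shares differed between CD34hi and CD34lo by -3.42 (*Has1*), 3.47 (*Has2*) and -0.046 percentage points (*Has3*). With division, leaving out a pool gave -2.53 to -1.22, 1.24 to 2.55 and -0.018 to -0.015.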
